A study of Mus musculus with 18 samples.

Results

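The subject is gene expression with and without a knockout of Aire in mTEChi, the medullary thymic epithelial cells that fell in the hi gate of a cell sort. KO mTEChi are from mice with the genotype Aire KO, WT mTEChi are from mice with the genotype wild type, and each genotype has 3 libraries. All mice were 6 to 8 weeks old, and the strain label B6.129S2-Airetm1.1Doi/J, that of the Aire mutant line, stands on both genotypes. Gene levels are the authors' RPKM, which scale for gene length and library size, so that levels of different genes can be compared per length. Genes with 0.1 RPKM or more in 3 or more of the 6 libraries were kept, which gave 19048 of the 23063 genes in the tables, and the 6 libraries are part of 18. The remaining 12 libraries, from cTEC (cortical epithelium) and mTEClo (the lo gate) of both genotypes, are used only where a result is set against those cells. Which surface protein set the gates is not given in the sources used here, nor is whether the 3 libraries of a group came from separate mice, so the p-values measure the spread between these libraries, which may be technical.

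Medullary thymic epithelial cells show developing T cells the proteins of other organs, so that T cells that bind them strongly can be removed or turned into regulatory cells. Aire is a nuclear protein of mature medullary cells that acts on the transcription of many such tissue-restricted genes, and loss of its human counterpart causes an autoimmune disease of endocrine organs, APECED. Besides the genes it acts on, these cells transcribe many tissue genes without Aire, carry high levels of MHC class II and costimulatory proteins, and include small subsets that resemble tuft, ciliated, skin or muscle cells.

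Some markers went with the label of the libraries, and others did not. Cd80, a costimulatory ligand of mature medullary cells, averaged 101 RPKM in KO mTEChi and 77.0 RPKM in WT mTEChi, against 5.93 RPKM in KO mTEClo and 3.24 RPKM in WT mTEClo. The thymoproteasome gene Psmb11, which marks the cortex, averaged 0.727 RPKM in KO mTEChi and 1.75 RPKM in WT mTEChi, against 13.9 RPKM in KO cTEC and 17.8 RPKM in WT cTEC. Prss16, Ly75 and Enpep were likewise higher in cTEC of both genotypes. The cortical markers Ccl25, Tbata and Dll4 were higher in mTEChi instead. Ccl25 averaged 479 RPKM in KO mTEChi and 242 RPKM in WT mTEChi, against 167 RPKM in KO cTEC and 182 RPKM in WT cTEC. Depth, as aligned bases on genes, was 6.25 to 11.6 Gb in KO mTEChi and 10.8 to 15.6 Gb in WT mTEChi. Pearson correlations of log2(RPKM + 0.1) across genes ran from 0.994 to 0.995 between KO libraries, from 0.984 to 0.990 between WT libraries and from 0.899 to 0.909 between genotypes. These are correlations across genes within pairs of libraries, and genes are not independent replicates. The 100 genes with the most bases took 19.99% to 20.13% of the bases in KO mTEChi and 15.82% to 16.01% in WT mTEChi.

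Transcripts of the targeted gene were not lost in KO mTEChi. Aire stood at 1126, 1001 and 1091 RPKM in the KO mTEChi libraries, against 658, 681 and 693 RPKM in the WT mTEChi libraries. All 3 KO libraries were above all 3 WT libraries, with a log2 fold change of 0.66 (SE 0.12, adjusted p = 0.0010), and the call was lost when all 18 libraries were fitted together. In the other cells Aire averaged 23.6 ± 8.64 RPKM in KO mTEClo and 9.90 ± 2.62 RPKM in WT mTEClo, and 52.8 ± 37.3 RPKM in KO cTEC and 4.47 ± 2.69 RPKM in WT cTEC (SD, n = 3 each). The tables give 1 value for the whole gene and none for single exons, so this value does not check which libraries carry the mutation.

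On the deposited scale most genes were lower in KO mTEChi, and mainly the weakly expressed ones. Fold changes are differences of log2(RPKM + 0.1), KO minus WT, and understate the change of low genes. A gene is called lower or higher where limma's test gave it an adjusted p (Benjamini-Hochberg, over all 19048 genes) below 0.05, which held for 71.3% of them. In KO mTEChi 11094 genes (58.2%) were called lower and 2491 (13.1%) higher. By 2-fold or more, 5745 genes (30.2%) were lower and 437 (2.29%) higher. The KO and WT libraries did not overlap for 11545 genes (60.6%) with the KO lower and 2743 genes (14.4%) with the KO higher. The median over all genes tested was -0.39, and the quartiles were -1.27 and -0.01. These shares depend on the scale. Quantile normalization, which forces the 6 libraries to 1 distribution, moved the median by 0.46 and gave 5256 genes lower and 6876 higher, so that 56.7% of the calls were higher, against 18.3% on the deposited scale. Centring each library on housekeeping genes moved the median by 0.12 and gave 9194 lower and 3043 higher, with 24.9% of the calls higher. By 2-fold or more, quantile normalization left 2086 genes lower and 2293 higher. Changes below are therefore read against a median of -0.39, and a group median of similar size sets no group apart. Counts after quantile normalization are read against its 5256 genes lower and 6876 higher of 19048. The abundance of a gene went with its direction. Among the 3759 genes whose higher group averaged under 1 RPKM, 70.6% were called lower and 2.29% higher, and the median was -1.27. The figures were 63.0% and 9.77% at 1 to under 10 RPKM, 46.6% and 22.2% at 10 to under 100 RPKM, and 24.0% and 42.3% among the 459 genes at 100 RPKM or more, whose median was 0.15. Genes that passed the filter through 1 genotype alone, 2134 through WT and 7 through KO, had to differ. The shares by level were therefore partly set by the filter. In a bulk sample fewer cells that express a gene and less RNA of it per cell cannot be told apart, and this holds for every gene below.

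**Figure D1:**
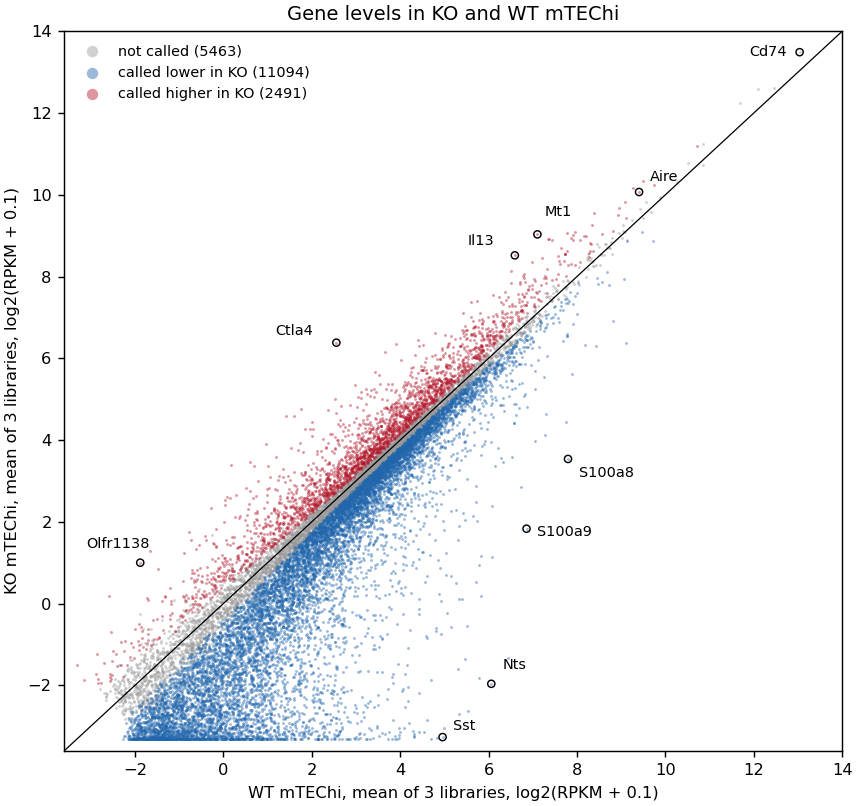
Mean level of each of the 19048 genes in KO mTEChi (vertical) and WT mTEChi (horizontal), both as log2(RPKM + 0.1) over 3 libraries, with the diagonal marking equal levels and circles marking named genes. The 11094 genes called lower fan out below the diagonal at low WT levels, down to the floor of 0 RPKM in the KO, while above 100 RPKM more genes were called higher (42.3%) than lower (24.0%).

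Fewer genes were detected in KO mTEChi. At 0.1 RPKM, 2134 genes were present in every WT mTEChi library and in no KO mTEChi library, and 7 genes the reverse. These genes passed the filter through 1 genotype alone and so had to differ. At 1 RPKM the counts were 1918 and 67. Per library, 16428 to 16512 genes reached 0.1 RPKM in KO mTEChi and 19428 to 19558 in WT mTEChi. Depth also differed between the genotypes, and its part in detection was not tested. KO replicate 2 had 11.6 Gb and 16512 genes, and WT replicate 1 had 10.8 Gb and 19558 genes. Of the genes at 1 RPKM or more in every WT library, 78 were listed at 0 in every KO library, and no gene showed the reverse. Among the 78 were Ppy (pancreatic polypeptide) at 24.5, 33.2 and 19.6 RPKM in the WT libraries, Avp (vasopressin) at 13.5, 16.7 and 13.9 RPKM, and Crh (corticotropin-releasing hormone) at 3.97, 7.62 and 3.30 RPKM.

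The largest falls included products of liver, mast cells, retina, endocrine cells and airway. Fgb, the fibrinogen beta chain made by liver, was listed at 0 in each KO mTEChi library, against 9.75, 12.2 and 7.68 RPKM in the WT mTEChi libraries (adjusted p = 6.2e-08). Spink7, a protease inhibitor, and Mcpt4, a mast cell protease, were likewise listed at 0 in each KO library, against means of 9.42 ± 2.61 and 9.27 ± 1.81 RPKM in WT (SD, n = 3). Aipl1, a chaperone of photoreceptors, averaged 0.00149 RPKM in KO mTEChi and 8.41 RPKM in WT mTEChi, and Mcpt1, a second mast cell protease, 0.00871 RPKM in KO mTEChi and 8.95 RPKM in WT mTEChi. These 5 genes, and Sst and Cytl1 below, were under 0.1 RPKM in each KO library. They passed the filter through WT alone and so had to differ. At 10 to under 100 RPKM the peptide genes led. Sst (somatostatin) stood at 0, 0 and 0.0118 RPKM in the KO libraries, against 30.4, 33 and 29.7 RPKM in the WT libraries, and Nts (neurotensin) at 0.0753, 0.119 and 0.275 RPKM in KO against 67.2, 70.6 and 62.2 RPKM in WT. Tac2 (neurokinin B), Crabp1 (a retinoic acid binding protein) and Cytl1 (a small secreted protein) completed the 5 largest falls of that band, with log2 fold changes of -8.05, -8.19 and -8.09. Among genes at 100 RPKM or more the largest falls included genes of epithelial defence. S100a9 and S100a8 encode the subunits of calprotectin, a metal-binding antimicrobial protein. S100a9 stood at 2.43, 5.06 and 2.89 RPKM in KO and 120, 131 and 96.9 RPKM in WT, 33.5-fold higher in WT (log2 fold change -5.08, SE 0.24, adjusted p = 5.7e-07). S100a8 stood at 10.8, 13.2 and 10.5 RPKM in KO and 244, 242 and 181 RPKM in WT. The serum amyloid genes Saa1 and Saa3 averaged 7.15 and 21.6 RPKM in KO, against 106 and 216 RPKM in WT. Bpifa1, a secreted airway protein, was at 11.9, 30.0 and 10.4 RPKM in KO against 149, 159 and 159 RPKM in WT. KO replicate 2 was the highest KO library for S100a9, S100a8, Saa1, Saa3 and Bpifa1, and stayed below every WT library.

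The largest rises were smaller than the largest falls in each band. Ctla4, an inhibitory receptor known from T cells, stood at 82.5, 85.2 and 82.3 RPKM in KO mTEChi, against 5.52, 6.44 and 5.38 RPKM in WT mTEChi, a 14.4-fold higher level (log2 fold change 3.83, SE 0.07, adjusted p = 3.1e-08). Fam19a1, a secreted chemokine-like protein, averaged 23.8 RPKM in KO and 2.91 RPKM in WT. Acot12, an acetyl-CoA hydrolase, averaged 10.9 RPKM in KO and 1.42 RPKM in WT, and Rgr, an opsin of retinal pigment epithelium, 10.3 RPKM in KO and 1.51 RPKM in WT. The last of that band was Glipr1, at 32.0 RPKM in KO and 5.62 RPKM in WT. Above 100 RPKM, Mt1, a metal-binding metallothionein, stood at 525, 564 and 481 RPKM in KO and 153, 153 and 107 RPKM in WT. Il13, a type 2 cytokine, stood at 365, 380 and 354 RPKM in KO and 96.2, 115 and 78.3 RPKM in WT. Hal, the histidine ammonia-lyase of skin and liver, Prokr2, a receptor for prokineticins, and Spock3, a matrix proteoglycan, rose with log2 fold changes of 1.75, 1.69 and 1.68. Among genes under 10 RPKM the olfactory receptor Olfr1138 stood at 1.85, 1.89 and 1.96 RPKM in KO and 0.0965, 0.151 and 0.267 RPKM in WT. Its neighbour Olfr1140, the immune receptor gene Nfam1, the glycogen regulator Ppp1r3c and the beta-defensin Defb33 had log2 fold changes of 2.54, 2.63, 2.53 and 2.51. In all 30 genes named here the 3 KO libraries and the 3 WT libraries did not overlap, which the choice of the genes required.

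**Figure D2:**
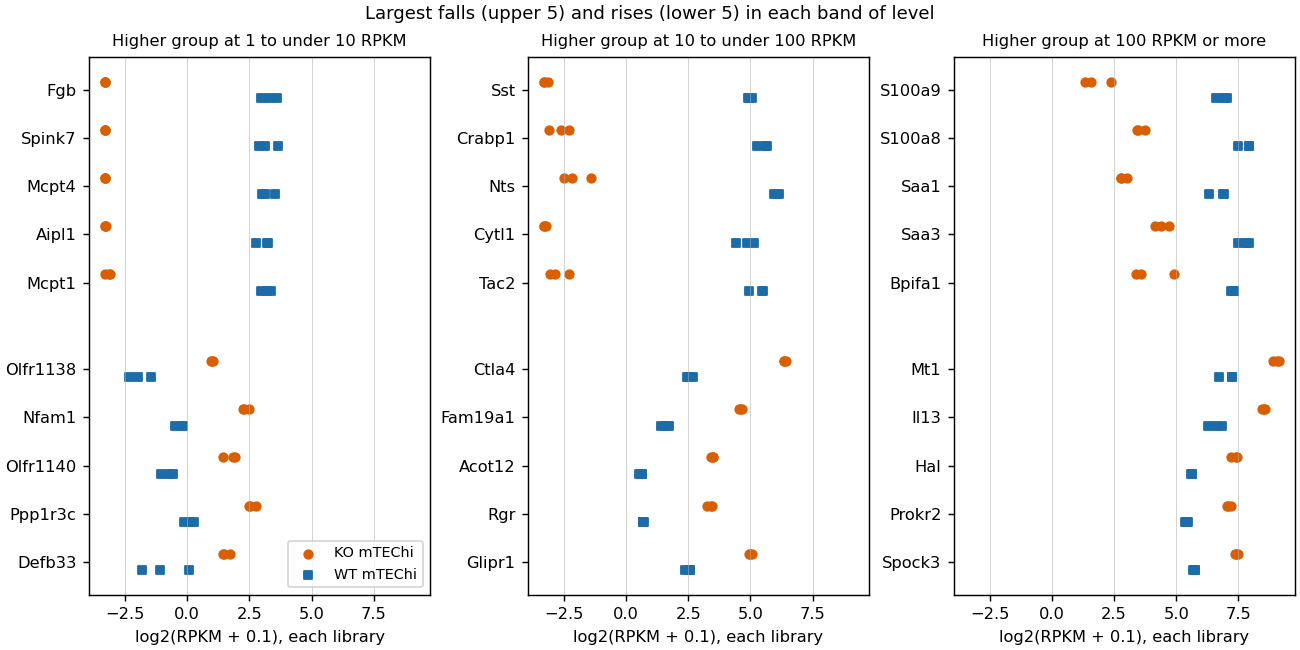
Level of the 5 largest falls and 5 largest rises in each of 3 bands of expression, as log2(RPKM + 0.1), with 1 point per library (circles KO mTEChi above, squares WT mTEChi below). The falls span up to -8.23 on the log2 scale (Sst), with KO points at or near the floor below 100 RPKM, and the rises reach 3.83 (Ctla4) and 1.94 above 100 RPKM (Mt1).

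The promoters of the genes that led each band are shown because the share of CpG at gene starts is compared between called genes further on. Each is 300 bases from RefSeq on GRCm38.p6, 250 before the start and 50 after it, read 5′ to 3′ on the gene's strand, and capitals mark CG. The regions are chr3:83049814-83050113 (minus strand) for Fgb, chr16:23890795-23891094 (minus) for Sst, chr3:90695672-90695971 (minus) for S100a9, chr2:87738273-87738572 (minus) for Olfr1138, chr1:60908775-60909074 (plus) for Ctla4 and chr8:94178839-94179138 (plus) for Mt1.
Fgb: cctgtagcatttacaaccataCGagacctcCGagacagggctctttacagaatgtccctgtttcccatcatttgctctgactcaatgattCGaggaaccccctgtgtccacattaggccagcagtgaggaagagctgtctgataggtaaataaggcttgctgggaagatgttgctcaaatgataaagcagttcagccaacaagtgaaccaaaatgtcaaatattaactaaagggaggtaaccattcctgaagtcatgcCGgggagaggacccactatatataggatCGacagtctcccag
Sst: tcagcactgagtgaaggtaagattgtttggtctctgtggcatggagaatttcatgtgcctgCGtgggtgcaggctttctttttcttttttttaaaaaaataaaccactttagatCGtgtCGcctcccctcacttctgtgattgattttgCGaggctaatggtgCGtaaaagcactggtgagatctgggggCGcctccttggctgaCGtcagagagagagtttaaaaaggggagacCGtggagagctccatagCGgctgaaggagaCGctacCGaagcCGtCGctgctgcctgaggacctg
S100a9: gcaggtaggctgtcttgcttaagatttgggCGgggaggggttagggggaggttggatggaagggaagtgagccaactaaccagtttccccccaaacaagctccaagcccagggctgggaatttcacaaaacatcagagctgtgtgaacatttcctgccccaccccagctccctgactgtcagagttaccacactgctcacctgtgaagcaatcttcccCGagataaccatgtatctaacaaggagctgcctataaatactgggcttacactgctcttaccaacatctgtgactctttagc
Olfr1138: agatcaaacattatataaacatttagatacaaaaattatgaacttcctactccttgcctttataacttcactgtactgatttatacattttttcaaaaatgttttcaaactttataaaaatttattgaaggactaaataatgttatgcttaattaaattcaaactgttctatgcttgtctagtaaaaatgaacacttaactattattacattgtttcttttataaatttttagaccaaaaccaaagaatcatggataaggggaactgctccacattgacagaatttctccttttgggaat
Ctla4: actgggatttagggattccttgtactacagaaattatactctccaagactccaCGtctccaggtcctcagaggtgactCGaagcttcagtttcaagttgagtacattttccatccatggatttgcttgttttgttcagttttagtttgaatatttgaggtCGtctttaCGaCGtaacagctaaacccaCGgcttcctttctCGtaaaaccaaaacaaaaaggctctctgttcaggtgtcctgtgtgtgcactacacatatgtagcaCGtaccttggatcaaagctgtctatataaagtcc
Mt1: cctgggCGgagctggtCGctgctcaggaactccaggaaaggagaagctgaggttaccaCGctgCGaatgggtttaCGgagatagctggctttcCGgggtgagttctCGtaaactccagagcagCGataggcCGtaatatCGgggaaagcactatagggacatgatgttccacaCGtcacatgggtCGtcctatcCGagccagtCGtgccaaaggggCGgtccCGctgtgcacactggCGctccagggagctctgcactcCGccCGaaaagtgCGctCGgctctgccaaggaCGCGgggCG
CG was counted on 1 strand, which gives the same count on the other. It occurs in 94.6% of the 32851 promoters of this kind, with a median of 7 per promoter. Among the genes that fell there were 5 in Fgb, 13 in Sst and 2 in S100a9, and among those that rose 0 in Olfr1138, 8 in Ctla4 and 24 in Mt1. Both kinds of gene thus included CG-poor and CG-rich promoters.

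Peptide hormones, the messengers of endocrine glands, gut and brain, were lower nearly throughout. Of 55 tested genes on that list, 48 (background 58.2%) were called lower, 3 higher and 4 were not called, with a median of -3.41 against -0.39 over all genes. The list also holds renin (Ren1), which is an enzyme. Some members, such as Avp at 0 RPKM in each KO library, passed the filter through WT alone and so had to differ. Ins2 (insulin) stood at 0.0511, 0.0140 and 0 RPKM in KO mTEChi, against 15.8, 19.7 and 11.4 RPKM in WT mTEChi. The gut hormone Gip averaged 0.0379 RPKM in KO and 24.1 RPKM in WT, and the appetite peptides Npy and Pomc averaged 0.475 and 2.13 RPKM in KO and 24.1 and 57.1 RPKM in WT. The 3 that rose were Calcb at 525, 544 and 481 RPKM in KO against 252, 255 and 219 RPKM in WT, Gh (growth hormone) at 16.4 RPKM in KO against 11.7 RPKM in WT, and Fgf21 at 314 RPKM in KO against 221 RPKM in WT. Calcb and its neighbour Calca encode closely related calcitonin gene-related peptides. Calca went the other way, at 32.5, 32.2 and 24.8 RPKM in KO against 72.5, 68.5 and 60.5 RPKM in WT (log2 fold change -1.17, adjusted p = 2.9e-05). The calls of Gh, Fgf21 and Calca were lost when all 18 libraries were fitted together. Sct (secretin) was not called, at 26.8 RPKM in KO and 25.7 RPKM in WT.

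Secreted and barrier proteins of skin, gut, pancreas and glands were lower nearly throughout. All 28 tissue kallikreins and all 33 late cornified envelope and small proline-rich genes were called lower by 2-fold or more, as were all 7 Reg genes, the regenerating islet and gut lectins. Over all genes 58.2% were lower, and 30.2% by 2-fold or more. Some members, such as Lce3a and Sprr2k at 0 RPKM in each KO library, passed the filter through WT alone and so had to differ. Of 48 keratins 44 were lower and 2 higher. Krt13, a keratin of stratified mucosa, averaged 0.00479 RPKM in KO and 19.8 RPKM in WT, and Krt10, a keratin of upper epidermis, 21.4 RPKM in KO and 95.4 RPKM in WT. The keratins of basal epithelium Krt5 and Krt14 averaged 78.2 and 51.8 RPKM in KO and 342 and 132 RPKM in WT. The simple epithelial keratins Krt8 and Krt18 were the 2 that rose, at 690 and 732 RPKM in KO and 548 and 485 RPKM in WT. Trypsins, chymotrypsins and elastases were lower in 21 of 23 genes, trefoil factors, gastrokines and mucins in 14 of 16, and major urinary proteins and lipocalins in 19 of 20. Tff3 (trefoil factor 3) averaged 1.33 RPKM in KO and 52.3 RPKM in WT. Cytochrome P450 enzymes were lower in 64 of 77 genes, collagens in 40 of 44, crystallins in 12 of 13, and complement and coagulation factors in 30 of 33. The family medians ran from -4.59 for the Reg genes to -1.40 for complement and coagulation factors, and stayed negative after quantile normalization. The count of P450 enzymes called lower was 37 and that of complement and coagulation factors 15 after quantile normalization. Reads shared between near-identical copies cannot be separated in these tables, which makes single values uncertain in the Sprr2, Lce, Klk1b, Mup and Defa genes.

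Large families of receptors and channels were lower on the deposited scale, but this depended on the scaling. Olfactory receptors had 78 of 1088 genes tested, with 49 lower and 10 higher, a median of -1.36 on the deposited scale and 0.09 after quantile normalization, where 14 were lower and 31 higher. Hox genes had 30 of 33 lower, with medians of -1.39 on the deposited scale and 0.03 after quantile normalization, where 5 were lower and 10 higher. Ligand-gated neurotransmitter receptors had 37 of 54 lower and 12 higher, with medians of -1.38 on the deposited scale and 0.11 after quantile normalization, where 12 were lower and 19 higher. Of the olfactory receptors 62.8% were called lower, close to the 58.2% over all genes. After quantile normalization more genes were higher than lower over all 19048 as well, 6876 against 5256. Among the receptors that rose on either scale were Grin2c, an NMDA receptor subunit, at 96.4 RPKM in KO and 45 RPKM in WT, and Chrna5, a nicotinic receptor subunit, at 22.7 RPKM in KO and 9.44 RPKM in WT. Of 80 cytosolic ribosomal protein genes 8 were lower, 7 higher and 65 not called, with a median of 0.00. Oxidative phosphorylation genes were lower in 32 and higher in 2 of 82, with a median of -0.23, and proteasome subunits were lower in 20 and higher in 0 of 39, with a median of -0.21.

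Genes of the same function could differ in direction. Zp2 and Zp3 both encode glycoproteins of the egg coat. Zp2 stood at 98.1, 109 and 103 RPKM in KO and 36.9, 49.1 and 50.8 RPKM in WT, while Zp3 stood at 0.0777, 0.0234 and 0.137 RPKM in KO and 8.13, 9.53 and 5.62 RPKM in WT. The skeletal myosins Myh4 and Myh3 averaged 17.4 and 0.0348 RPKM in KO and 6.95 and 7.13 RPKM in WT. Zp2 and Myh4 rose, and Zp3 and Myh3 fell in KO. These pairs were chosen after their values were seen.

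Autoantigens of Aire deficiency, the mouse counterparts of proteins bound by autoantibodies in patients or in Aire-deficient mice, were examined one by one. Of 43 tested genes 35 (81.4%, against 58.2% over all genes) were called lower, 5 higher and 3 were not called, with a median of -1.70. Some members, such as Ifna4, were under 0.1 RPKM in each KO library. They passed the filter through WT alone and so had to differ. Cyp1a2, a liver P450, stood at 0, 0.0162 and 0.0249 RPKM in KO against 11.99, 17.02 and 11.09 RPKM in WT. Th, tyrosine hydroxylase of catecholamine synthesis, stood at 0.0263, 0.0340 and 0.00684 RPKM in KO against 6.78, 6.44 and 5.74 RPKM in WT. Bpifb1, a lung secretory protein, averaged 0.187 RPKM in KO and 14.1 RPKM in WT. Nlrp5, the parathyroid and oocyte antigen, averaged 0.0178 RPKM in KO and 1.28 RPKM in WT, and Cyp11a1, the first enzyme of steroid synthesis, 0.452 RPKM in KO and 11.9 RPKM in WT. The enzyme antigens Hdc (histidine decarboxylase) and Tph1 (tryptophan hydroxylase) rose, Hdc to 543, 531 and 442 RPKM in KO, against 294, 293 and 269 RPKM in WT, and Tph1 to 9.05 RPKM in KO, against 6.63 RPKM in WT. Sox9, Mbp and Cyp17a1 rose by 0.39, 0.23 and 0.39 on the log2 scale. In the fit of all 18 libraries Hdc, Tph1, Mbp and Cyp17a1 were not called. Thyroglobulin (Tg) and the thyrotropin receptor (Tshr) were lower on the deposited scale, at 1.78 and 0.111 RPKM in KO against 2.71 and 0.587 RPKM in WT, and had log2 fold changes of 0.26 and 0.11 after quantile normalization. Il22, Casr and Kcnrg were not called, at 6.43, 7.90 and 1.45 RPKM in KO and 7.74, 6.98 and 1.52 RPKM in WT.

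**Figure D3:**
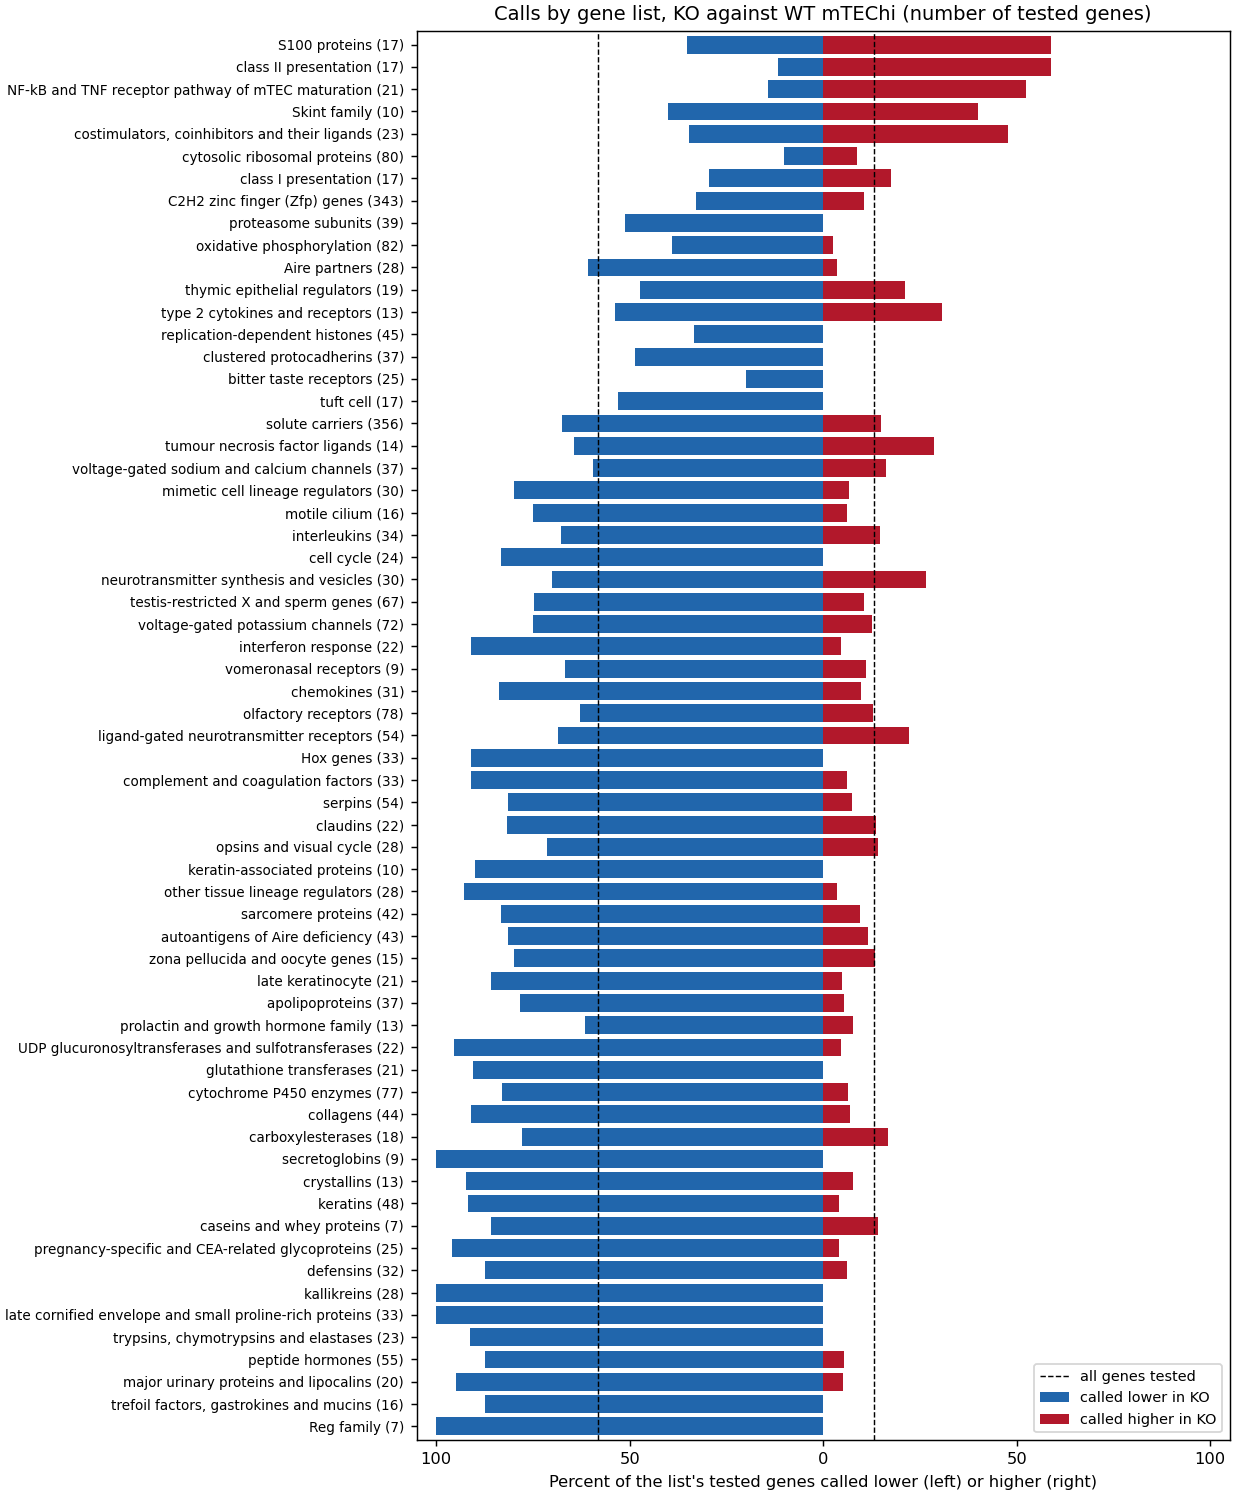
Percent of the tested genes of each list called lower (bars to the left) or higher (bars to the right) in KO mTEChi, ordered by median log2 fold change, with the number of tested genes in parentheses and dashed lines at the shares over all 19048 genes (58.2% lower, 13.1% higher). Peptide hormones, kallikreins, cornified envelope genes and other secreted families stand at the foot with over 80% lower, and S100 proteins, class II presentation and the NF-kB list at the head with over 50% higher.

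Genes of class II antigen presentation were more often higher than lower. Of 17 class II genes 10 (58.8%) were called higher, 2 lower and 5 were not called. The median was 0.48 on the deposited scale and 0.40 after quantile normalization. Over all genes 13.1% were called higher. Among all genes at 100 RPKM or more, where many class II genes lie, 42.3% were higher and 24.0% lower. H2-Ob, a chain of the peptide-loading modulator H2-O, stood at 109, 109 and 114 RPKM in KO against 43.7, 44.8 and 44.3 RPKM in WT (log2 fold change 1.32, adjusted p = 2.2e-07). H2-Eb2 stood at 498, 511 and 469 RPKM in KO against 237, 227 and 231 RPKM in WT. The class II transactivator Ciita averaged 93.6 RPKM in KO and 69.0 RPKM in WT, and the lysosomal protease Ctss (cathepsin S) 237 RPKM in KO and 132 RPKM in WT. Ctsl (cathepsin L), the corresponding protease of the cortex, was lower, at 29.2 RPKM in KO and 98.0 RPKM in WT. H2-Aa, H2-Ab1 and the invariant chain Cd74 were higher in all 3 KO libraries than in any WT library but were not called, with adjusted p = 0.16 for H2-Aa and 0.090 for H2-Ab1. Cd74 averaged 11490 RPKM in KO and 8402 RPKM in WT. All 3 were called higher after centring on housekeeping genes and when the variance trend was left out of the fit, and had log2 fold changes of 0.14 (H2-Aa), 0.00 (H2-Ab1) and 0.00 (Cd74) after quantile normalization, where they were not called. Class I genes had 3 of 17 higher and 5 lower, with a median of -0.09, and 3 higher and 8 lower after quantile normalization. Among 23 costimulators, coinhibitors and their ligands, 11 were higher and 8 lower, and 14 and 4 after quantile normalization. Ctla4, Lag3, Icosl, Cd80 and Cd86 were among those that rose. Icosl, the ligand of ICOS, averaged 257 RPKM in KO and 155 RPKM in WT, and Lag3, an inhibitory receptor that binds class II, 18.8 RPKM in KO and 6.99 RPKM in WT. Cd86 averaged 18.5 RPKM in KO and 12.9 RPKM in WT, and the calls of Cd80 and Cd86 were lost when all 18 libraries were fitted. Pdcd1 and Btla, inhibitory receptors of lymphocytes, fell, at 0.0844 and 0.123 RPKM in KO and 0.721 and 0.794 RPKM in WT. Tigit was lower on the deposited scale, at 0.969 RPKM in KO and 1.31 RPKM in WT, with a log2 fold change of 0.87 after quantile normalization. The NF-kB and TNF receptor pathway of medullary maturation had 11 of 21 genes (52.4%) higher and 3 lower, against 13.1% higher over all genes. Its receptor RANK (Tnfrsf11a) averaged 65.2 RPKM in KO and 44.5 RPKM in WT, called in the 6-library fit and not in that of all 18, and the kinase NIK (Map3k14) 41.2 RPKM in KO and 24.7 RPKM in WT.

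Chemokines and interferon-response genes fell. Of 31 chemokines 26 (83.9%) were lower and 3 higher, with medians of -1.34 on the deposited scale and -0.96 after quantile normalization. Over all genes 58.2% were lower. Ccl20, which draws CCR6-bearing cells, stood at 11.1, 11.2 and 10.4 RPKM in KO against 79.7, 89.0 and 72.6 RPKM in WT. Xcl1, which draws XCR1-bearing dendritic cells, stood at 0.186, 0.333 and 0.255 RPKM in KO against 12.3, 20.2 and 13.6 RPKM in WT. Ccl22 and Ccl17, the ligands of CCR4, averaged 25.9 and 18.2 RPKM in KO and 80.8 and 30.4 RPKM in WT. Ccl25, the ligand of CCR9, rose to 509, 514 and 416 RPKM in KO, against 274, 243 and 210 RPKM in WT. Ccl19, a ligand of CCR7, was not called, at 357 RPKM in KO and 305 RPKM in WT. Of 22 interferon-response genes 20 (90.9%) were lower, 1 was higher and 1 was not called. Their medians were -1.29 on the deposited scale and -1.05 after quantile normalization. Isg15, a ubiquitin-like modifier, stood at 10.98, 13.1 and 12.5 RPKM in KO against 60.0, 64.3 and 44.8 RPKM in WT. Ifit1 and Ifit3 are neighbouring members of 1 family of antiviral proteins. Ifit3 averaged 1.82 RPKM in KO and 17.4 RPKM in WT, while Ifit1 stood at 75.5, 82.5 and 77.5 RPKM in KO against 42.6, 42.8 and 36.9 RPKM in WT. Both directions held after quantile normalization.

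Regulators of the thymic epithelium were mixed, and those of other lineages mostly lower on the deposited scale. Of 19 thymic epithelial regulators 9 (47.4%) were lower, 4 higher and 6 not called, with a median of -0.32. After quantile normalization 5 were lower and 7 higher, with a median of 0.06. Over all 19048 genes 58.2% were called lower and 13.1% higher, and quantile normalization gave 5256 lower and 6876 higher. Fezf2, which drives a further set of tissue genes, was not called, at 216, 218 and 210 RPKM in KO and 216, 228 and 213 RPKM in WT, and was called lower (log2 fold change -0.18) after quantile normalization. Foxn1, the master regulator of thymic epithelium, averaged 58.0 RPKM in KO and 56.4 RPKM in WT and was not called. Irf8 rose to 269, 274 and 259 RPKM in KO, against 110, 120 and 106 RPKM in WT, and Sirt1, a deacetylase that acts on Aire, averaged 207 RPKM in KO and 127 RPKM in WT. Pax1 and the remodeller Chd4 fell, at 10.8 and 21.3 RPKM in KO and 19.9 and 36.6 RPKM in WT. Of 30 regulators of mimetic lineages 24 were lower and 2 higher, with a median of -0.97, and 15 and 6 after quantile normalization, with a median of -0.29. Foxi1, of ionocytes, averaged 0.101 RPKM in KO and 5.37 RPKM in WT, and Neurog3, of endocrine cells, 0.0427 RPKM in KO and 2.53 RPKM in WT. Trp73, of ciliated cells, averaged 0.0676 RPKM in KO and 1.78 RPKM in WT. Insm1, a neuroendocrine regulator, rose to 124, 131 and 128 RPKM in KO, against 61.2, 69.0 and 59.0 RPKM in WT. Tuft cell genes had 9 of 17 (52.9%) lower and none higher, a share near the 58.2% over all genes, with 5 lower and 1 higher after quantile normalization. Pou2f3, the tuft cell regulator, averaged 15.8 RPKM in KO and 22.7 RPKM in WT. Motile cilium genes had 12 of 16 lower and 1 higher, with a median of -1.04, and 7 lower and 5 higher after quantile normalization, with a median of -0.19. Their regulator Foxj1 was not called, at 27.4 RPKM in KO and 23.4 RPKM in WT. Regulators of other tissues had 26 of 28 lower and 1 higher, and 11 and 4 after quantile normalization, with medians of -1.65 on the deposited scale and -0.35 after it.

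The molecules that work with Aire were called lower about as often as all genes. Of 28 partners 17 (60.7%, near the 58.2% over all genes) were lower, 1 higher and 10 not called. The median was -0.24, against -0.39 over all genes. After quantile normalization 12 were lower and 3 higher, with a median of -0.06. The coactivator Crebbp was the 1 that rose on the deposited scale, at 18.2, 15.7 and 19.8 RPKM in KO against 8.42, 8.36 and 9.34 RPKM in WT. Top2a, a topoisomerase that also marks dividing cells, averaged 6.86 RPKM in KO and 19.0 RPKM in WT. Cell cycle genes had 20 of 24 (83.3%) lower and none higher, against 58.2% lower over all genes. Their medians were -1.13 on the deposited scale and -0.59 after quantile normalization. Mki67 stood at 5.59, 5.70 and 4.85 RPKM in KO against 14.9, 10.51 and 16.9 RPKM in WT, while Pcna was not called, at 41.3 RPKM in KO and 40.2 RPKM in WT.

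Markers of other cells that a thymus digest can hold were examined as lists. Of 16 thymocyte markers 14 were lower and 1 higher on the deposited scale, against 58.2% lower over all genes, and 2 were lower and 2 higher after quantile normalization. Their summed levels overlapped, at 94.5 to 123.4 RPKM in KO and 103 to 141 RPKM in WT. Of 17 dendritic cell and macrophage markers 13 were lower and 1 higher, and 7 and 3 after quantile normalization, with overlapping sums of 361 to 393 RPKM in KO and 379 to 413 RPKM in WT, most of it Lyz2, which was not called. B cell and plasma cell markers were lower in 6 and higher in 2 of 10, and in 3 and 4 after quantile normalization, with sums of 58.8 to 63.6 RPKM in KO and 78.9 to 82.6 RPKM in WT. Fibroblast markers were lower in 8 and higher in 1 of 10, and in 5 and 3 after quantile normalization, with sums of 51.7 to 68.1 RPKM in KO and 69.5 to 75.5 RPKM in WT. Endothelial markers were lower in 6 and higher in 1 of 10, and in 3 and 2 after quantile normalization, with sums of 18.1 to 22.9 RPKM in KO and 31.3 to 37.7 RPKM in WT. Of 6 erythroid markers 3 were tested and 2 of these were lower, while 2 markers were listed at 0 in all 6 libraries. No marker of the other lists was at 0 in all 6 libraries. After quantile normalization the medians of the B cell, endothelial and erythroid lists turned positive, at 0.24, 0.17 and 0.14. On that scale 5256 of all 19048 genes were lower and 6876 higher, with a median of 0.072. Defining markers of thymocytes were present in both genotypes, such as Cd4 at 5.29 RPKM in KO and 8.36 RPKM in WT. The part of such cells in the falls of cytokines, chemokines and immune genes was not tested.

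Genes that fell by 2-fold or more lay next to each other. Along the chromosomes, with genes not tested passed over, they formed 3055 runs of neighbouring genes, and 2620 of the 5745 (45.6%) lay in runs of 3 or more. There were 26 runs of 10 or more. Where any gene not tested broke a run, 16 runs of 10 or more were left, the longest of 44 genes, and 37.0% of the genes lay in runs of 3 or more. The 437 genes that rose formed 373 runs, the longest of 5 genes, and 9.61% of them lay in runs of 3 or more. Of all tested genes 30.2% fell and 2.29% rose by 2-fold or more. Runs are thus more frequent among falls by number alone, and the share that number alone would give was not tested. The filter also admitted 2134 genes through WT alone and 7 through KO alone, and these had to differ. Some genes in runs, such as Lce3a and Sprr2k in the longest, were among the 2134. The longest run held 48 genes over 2.42 Mb of chromosome 3, chr3:90654302-93075505, within the epidermal differentiation complex, a cluster of genes of the skin barrier. The next were 30 genes at the type I keratins and keratin-associated genes (chr11:99280093-100248902) and 29 genes at the kallikreins (chr7:43690418-44236122). Runs of 18, 17 and 14 genes lay at the pregnancy-specific glycoproteins (chromosome 7), the mast cell proteases and granzymes (chromosome 14) and the Bpif genes (chromosome 2). Such clusters hold copies of 1 ancestral gene, so their members share sequence and are not independent. Coordinates are those of the tables, on mm10. By chromosome, the share lower by 2-fold or more ran from 26.4% (chromosome 13) to 35% (chromosome 6).

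Within the epidermal differentiation complex the direction changed with position. S100a1, S100a13, S100a14, S100a16, S100a2, S100a3, S100a4, S100a5 and S100a6, the block at one end, were all called higher. S100a6, the last of them, stood at 489, 561 and 410 RPKM in KO and 173, 190 and 133 RPKM in WT, and S100a4 at 286, 312 and 238 RPKM in KO and 93.8, 95.02 and 84.3 RPKM in WT. The next gene, S100a7a, began the run of 48 that fell, at 0.492, 0.348 and 0.556 RPKM in KO and 4.995, 4.81 and 6.43 RPKM in WT, and was followed by S100a8 and S100a9. On the far side of the run, S100a10 and S100a11 averaged 28.9 and 127 RPKM in KO and 80.2 and 190 RPKM in WT. Over the S100 family 10 of 17 genes were higher and 6 lower, with a median of 0.74. Over all genes 13.1% were higher and 58.2% lower. Among all genes at 100 RPKM or more, where many S100 genes lie, 42.3% were higher and 24.0% lower. The 17 include S100pbp, which is not an S100 protein. The calls of S100a2 and S100a3 were lost when all 18 libraries were fitted.

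The type 2 cytokine and casein loci mixed directions and, like the loci above, were chosen after their values were seen. In the type 2 cytokine locus of chromosome 11, Il4 stood at 19.4, 21.2 and 17.1 RPKM in KO and 3.80, 3.26 and 3.38 RPKM in WT. Il13 and the DNA repair gene Rad50, which lie beside it, also rose, Rad50 to 66.0, 65.4 and 61.4 RPKM in KO, against 24.2, 23.5 and 23.4 RPKM in WT. Il5, the next gene, fell to 1.003, 1.11 and 1.07 RPKM in KO, against 10.01, 10.1 and 7.54 RPKM in WT. The type 2 cytokines Il9 and Il33, on other chromosomes, averaged 0.0122 and 0.190 RPKM in KO and 8.48 and 2.90 RPKM in WT. In the casein locus of chromosome 5, the milk protein gene Csn2 stood at 1266, 1358 and 1236 RPKM in KO and 689, 762 and 710 RPKM in WT. Its neighbours Csn1s1 and Csn1s2a averaged 0.430 and 0.118 RPKM in KO and 6.79 and 21.4 RPKM in WT. Of the 18 tested genes in that stretch of 1.01 Mb, 16 were lower and Csn2 alone was higher, and its call was lost when all 18 libraries were fitted. Over all genes 58.2% were lower and 13.1% higher. Some of the 16, such as Smr3a and Prol1 at 0 RPKM in each KO library, passed the filter through WT alone and so had to differ. Amtn, an enamel protein gene at the far end, averaged 0.00231 RPKM in KO and 15.7 RPKM in WT.

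**Figure D4:**
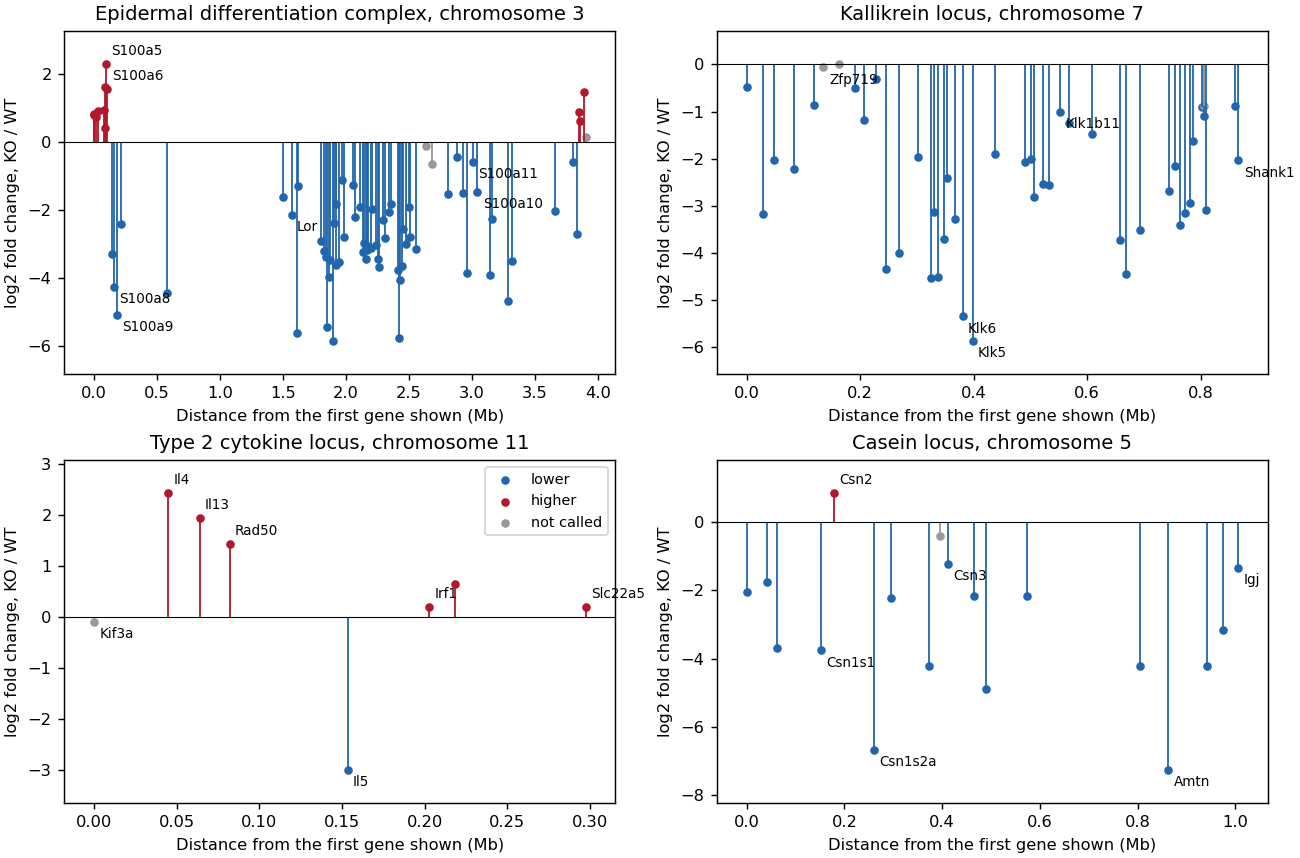
log2 fold change (KO over WT mTEChi) of the tested genes in 4 loci against the distance of the gene start from the first gene shown, in Mb, coloured by call. In the epidermal differentiation complex S100 genes that rose give way to a run that fell, all called kallikreins lie below 0, Il4, Il13 and Rad50 lie above 0 with Il5 at -3.0 between them and Irf1, and Csn2 at 0.84 stands alone above 0 in the casein locus.

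The level of a gene in mTEClo, whose libraries took no part in the calls, went with its fate in mTEChi. Of tested genes under 0.1 RPKM in WT mTEClo, 74.6% were lower by 2-fold or more in KO mTEChi. The shares were 50.5% at 0.1 to 1 RPKM, 21.3% at 1 to 10, 8.70% at 10 to 100 and 18.8% at 100 RPKM or more. In the lowest bin 1611 of 2775 tested genes had passed the filter through WT mTEChi alone. Over every gene of the tables, tested or not, the shares were 31.3% and 48.1% in the 2 lowest bins. With the bins set by KO mTEClo the shares were 79.3%, 48.3%, 21.5%, 7.99% and 14.8%. The genes lower by 2-fold or more had a median level of 0.171 RPKM in KO mTEChi and 1.48 RPKM in WT mTEChi, against 0.265 RPKM in KO mTEClo and 0.294 RPKM in WT mTEClo. The genes higher by 2-fold or more had medians of 13.9 RPKM in KO mTEChi and 4.63 RPKM in WT mTEChi, 1.68 RPKM in KO mTEClo and 0.891 RPKM in WT mTEClo, and 2.76 RPKM in KO cTEC and 0.803 RPKM in WT cTEC. Aire itself was higher on average in the KO than in the WT libraries of mTEClo and cTEC, and whether mTEChi in those sorts contributed was not tested.

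The effect of the KO was then compared between mTEChi and mTEClo in 1 fit of all 18 libraries. In 4997 of the 5745 genes (87.0%) that fell by 2-fold or more, the effect was more negative in mTEChi than in mTEClo, against 40.9% over all 19451 genes of that fit. Of the 5745 genes, 679 were also called lower in mTEClo. Both shares use the same mTEChi libraries that chose the genes and are given as a description. Genes near 0 RPKM in WT mTEClo also had little room to fall there. Among the 437 genes that rose, the effect was more positive in mTEChi in 194 (44.4%), against 6.01% over all genes. S100a9 fell in mTEChi and averaged 10.6 RPKM in KO mTEClo and 8.26 RPKM in WT mTEClo, with a difference between the 2 effects of -5.45 (adjusted p = 3.5e-07). For Ctla4 the difference was not called (0.50, adjusted p = 0.49), and the gene was also higher in KO mTEClo, at 5.13 RPKM against 0.402 RPKM in WT mTEClo. Il13 averaged 4.45 RPKM in KO mTEClo and 0.950 RPKM in WT mTEClo, and its difference of -0.05 was not called either (adjusted p = 0.95).

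**Figure D5:**
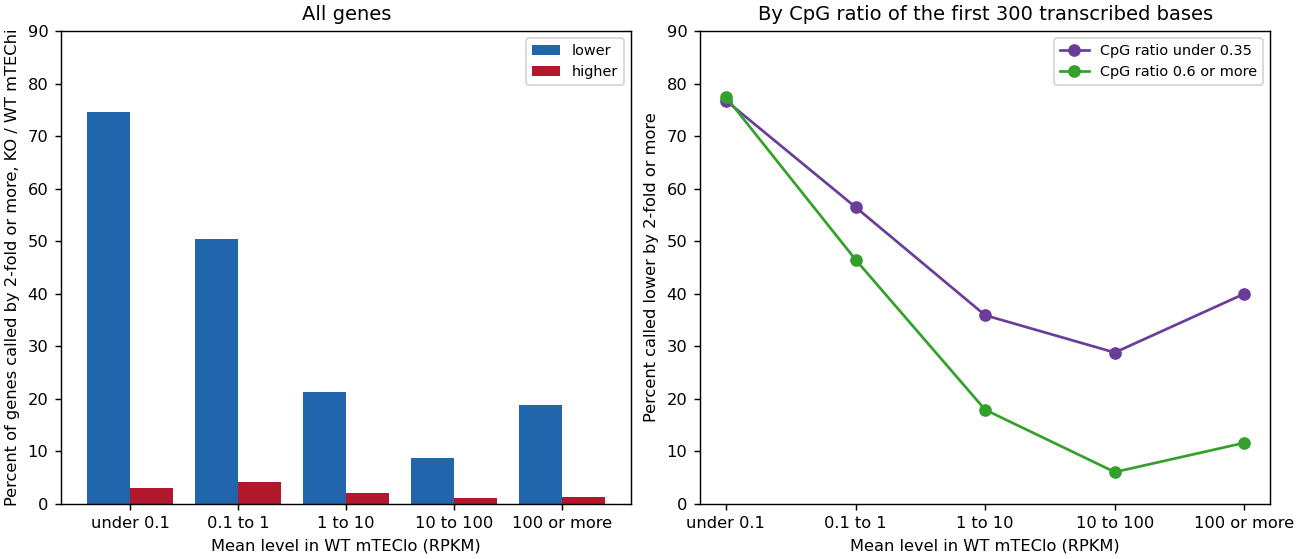
Left, percent of tested genes called lower or higher by 2-fold or more in KO mTEChi, by mean level in WT mTEClo (RPKM). Right, percent called lower by 2-fold or more for genes with a CpG ratio of the first 300 transcribed bases under 0.35 or of 0.6 or more, in the same bins. The lower share drops to 8.70% at 10 to 100 RPKM, and genes with the lower ratio have the higher share in each bin from 0.1 RPKM up. In the lowest bin 1611 of 2775 genes passed the filter through WT mTEChi alone, so the CpG classes are not compared there.

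Genes changed by 2-fold or more in either direction had a lower CpG ratio at their starts than genes not called. The CpG ratio is the number of CG over that expected from the C and G content, here in the first 300 transcribed bases, which were found for 97.3% of the genes. Its median was 0.439 in genes lower by 2-fold or more, 0.488 in genes higher by 2-fold or more, 0.713 in genes not called and 0.653 over all genes. Of genes with a ratio under 0.2, 59.6% were lower by 2-fold or more, and of genes at 0.8 or above, 16%. Both classes of ratio were compared within bins of level, since genes with a low ratio were also weaker. At 0.1 to 1 RPKM in WT mTEClo 56.5% of genes with a ratio under 0.35 and 46.5% of those at 0.6 or more were lower by 2-fold or more. The shares were 35.9% and 17.9% at 1 to 10 RPKM and 28.8% and 6.03% at 10 to 100 RPKM. Under 0.1 RPKM no comparison was made, since 1611 of the 2775 tested genes there passed the filter through WT mTEChi alone and so had to fall. At 0.1 to 1 RPKM 467 of 3429 did. These are shares over genes, with no test.

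The spread between libraries of a genotype differed with the call. The call itself uses this spread, and a gene with a small change had to vary little to be called. The values below are therefore partly set by the call and are a description. At 1 to 10 RPKM in WT mTEChi the median coefficient of variation over the 3 WT libraries was 13.7% in genes lower by 2-fold or more, 7.59% in genes lower by less, 8.76% in genes not called and 7.46% in genes called higher. At 10 to 100 RPKM the medians were 9.54%, 5.25%, 5.76% and 4.46% in the same order. In KO mTEChi, genes lower by 2-fold or more that remained at 1 to 10 RPKM had a median of 12.1%, against 6.74% in genes lower by less and 7.27% in genes not called.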

How the data were processed

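RNA of sorted thymic epithelial cells was sequenced on HiSeq2000 from standard Illumina libraries, per the labels' protocols, and processed with CASAVA 1.8.2 on mm10, per the submitters' processing notes. Per the deposited tables, the authors gave for each gene and library an RPKM value and the aligned bases (a coverage signal). The bases were used for depth only. Whole reads were not recovered, so no count test was run, and the intervals of single values are unknown.

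RPKM was taken as log2(RPKM + 0.1), and genes with 0.1 RPKM or more in 3 or more of the 6 libraries were tested. limma 3.58.1 (R 4.3.3) compared KO with WT mTEChi over the 6 libraries, with a variance trend and Benjamini-Hochberg adjustment over all tested genes. A gene was called at an adjusted p under 0.05. A fit of all 18 libraries gave the difference between the effects in mTEChi and mTEClo. The fit was tested on simulated data. Alternatives were the normalization, the pseudocount, the filter, the variance trend, all 18 libraries, a replicate block and each library left out.

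The genes and lists were chosen with earlier results of these data known. Named genes are Aire, the 5 largest falls and 5 largest rises with no overlap in each of 3 bands of level, and members of the lists by smallest adjusted p or largest change. All members of 5 lists could be named. Further genes, among them those of the loci, and the paired contrasts within families, were chosen after their values were seen. Some genes are not reported here. Promoters were found for 77.2% of the tested genes, under the minimum of 80%, so the planned comparison of promoter sequence between called genes is void. The CpG ratio of the first 300 transcribed bases (GENCODE M21 transcripts, on GRCm38) replaced it and was chosen after seeing the data.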

Additional observations from a re-analysis of the deposited data

Results flagged for a closer look

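Results were singled out where the effect of the KO differed between mTEChi and mTEClo in the fit of all 18 libraries. Groups of 3 libraries are too small for a test of single outlying libraries, and none was made.

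Of the genes lower by 2-fold or more in KO mTEChi, 4997 had a more negative effect in mTEChi than in mTEClo and 2 a more positive one. Of the genes higher by 2-fold or more, 194 had a more positive effect in mTEChi and 2 a more negative one. Among the 30 genes with the largest changes by band, the difference was called in 20, in 13 of the 15 falls and 7 of the 15 rises. These genes were chosen for their change in mTEChi. Many of the falls were near the floor in WT mTEClo, such as Spink7 at 0.0350 RPKM and Cytl1 at 0.120 RPKM. They had little room to fall there, so a more negative effect in mTEChi was largely set in advance. The differences below are the log2 effect in mTEChi minus that in mTEClo. They were -4.47 for Fgb, -6.19 for Spink7, -5.96 for Mcpt4, -5.73 for Aipl1 and -5.62 for Mcpt1 in the lowest band. For the peptide and secreted genes of the middle band they were -6.67 for Sst, -6.13 for Crabp1, -5.91 for Nts, -7.17 for Cytl1 and -6.07 for Tac2. In the highest band they were -5.45 for S100a9, -2.71 for S100a8 and -4.27 for Bpifa1. Among the rises they were 2.53 for Olfr1138, 1.47 for Nfam1, 0.90 for Ppp1r3c, 2.34 for Defb33, 1.69 for Fam19a1, 1.25 for Rgr and 1.34 for Mt1. Bpifa1 was the one of these falls with a high level in the other cells, at 146 RPKM in KO mTEClo and 75.6 RPKM in WT mTEClo, and 499 RPKM in KO cTEC and 329 RPKM in WT cTEC.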

How the results depend on the processing

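Scaling moved the counts of calls, and the cause was not tested. Quantile normalization gave 5256 genes lower and 6876 higher, 2086 and 2293 of them by 2-fold or more, and a median of 0.072. A pseudocount of 1 left 2356 genes lower and 291 higher by 2-fold or more, and a filter at 1 RPKM, which tests fewer genes, 3174 lower by 2-fold or more. At 1 RPKM 67 genes were in every KO and no WT library. Without each library in turn, 10275 to 10966 genes were lower and 2171 to 2446 higher. Same-numbered KO and WT libraries did not deviate together (correlations of -0.011, -0.031 and -0.024), so the numbers do not pair them, and the replicate block gave 11077 lower and 2503 higher. Of 360 genes covered by the naming rule or named besides, 16 changed sign under quantile normalization. They were Pcdhb17 (0.024), Psmb11 (0.048), Tshr (0.11), Tg (0.26), Atp4b (0.091), Tigit (0.87), Prdm1 (0.29), Tbx1 (0.53), Hoxa3 (0.031), Myf6 (0.34), Nkx2-2 (0.010) and Foxa3 (0.78), and the uncalled Lyz2 (-0.16), Ccl19 (-0.034), Il22 (0.058) and Kcnrg (1.05). Fezf2 and Kcnrg, both uncalled, changed sign with housekeeping centring (0.088 and 0.052). Without a library in turn, Fezf2 ran from -0.048 to 0.0022, Pcna from -0.033 to 0.125 and Sct from -0.069 to 0.153. Calls were lost for 47 genes in the fit of all 18 libraries, 30 under quantile normalization and 8 to 11 without a library. With 3 libraries a group, an exact permutation test of 1 gene cannot go below 0.1.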
